A study of Mus musculus with 4 samples.

Results

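Macrophage and monocyte identity genes are 34 genes that mark mononuclear phagocytes, the tissue macrophages and their blood precursors. They were taken by name, and every probe set annotated to exactly 1 of their symbols was used. This gave 32 measured genes, covered by 54 probe sets, out of 18193 genes measured in all. The other two, Ly6c2 and Lilrb4a, were represented only by probe sets that they share with the neighbouring genes Ly6c1 and Lilr4b, and were not analysed here.

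The samples were 4 Affymetrix arrays of RNA from mouse liver tumors. These tumors arose from LPCs (liver progenitor cells) transplanted orthotopically into the livers of recipient mice, were driven by HrasV12 and contained shp53, a tet-off short hairpin RNA that silences p53. In the p53 on group (n = 2) the mice had received doxycycline for 8 days, which stops the hairpin. In the p53 off group (n = 2) doxycycline was given for 0 days. Restored p53, doxycycline itself and the passing of 8 days cannot be told apart in this design. The labels give neither the strain nor the immune status of the recipients. They also do not say that replicates are separate tumors, so the spread behind each p-value is that between 4 arrays and may be technical.

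Macrophages of the liver come from separate origins. Resident Kupffer cells settle before birth, line the sinusoids and carry a set of scavenger and lectin receptors such as Clec4f, Vsig4, Timd4 and Marco. Circulating monocytes, drawn in by chemokines, give rise to further macrophages in injured liver and in tumors. These newcomers share the general machinery of the lineage (the transcription factor PU.1, lysosomal and phagocytic proteins, Fc receptors, an oxidase that makes superoxide). They may lack some or all Kupffer cell genes. A lipid-associated program marked by Trem2 and Gpnmb appears in macrophages that take up lipid and debris.

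The 8 members grouped as pan-macrophage were higher in p53 on, while the 7 Kupffer and resident members were not called in either direction. In the limma fit, 23 of the 32 members were higher (adjusted p under 0.05) and 0 were lower, beside 14% of all genes higher and 14.7% lower (28.7% in either direction). Scaling to spike-in controls changed the split over all genes to 24.3% higher and 10.4% lower, and centring each array on its median changed it to 11.6% and 19%; the members' counts were then 25 and 0, and 23 and 0. At least 2-fold rises were called for 7 members (Ms4a7, Adgre1, Aif1, Mpeg1, Lyz2, Cybb and Cd83), beside 2.73% of all genes. At an unadjusted p under 0.05 the members' counts were the same, 23 and 0, beside 3760 higher and 3594 lower of all 18193 genes. Later counts at an unadjusted p are to be read beside these. Without p53 off replicate 2 the count called higher was 14, beside 6.01% of all genes. The median change of the 32 members was 0.589 on the log2 scale, against 0.0228 for all genes. The p53 on and p53 off arrays did not overlap for 27 members, beside 66.7% of all genes. The 4 arrays put the mean log2 level of the members at 10.07 and 9.98 in p53 on and at 9.39 and 9.35 in p53 off. In whole tumor RNA, more cells of a type and more RNA of a gene per cell cannot be told apart, here and in all that follows.

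**Figure D1:**
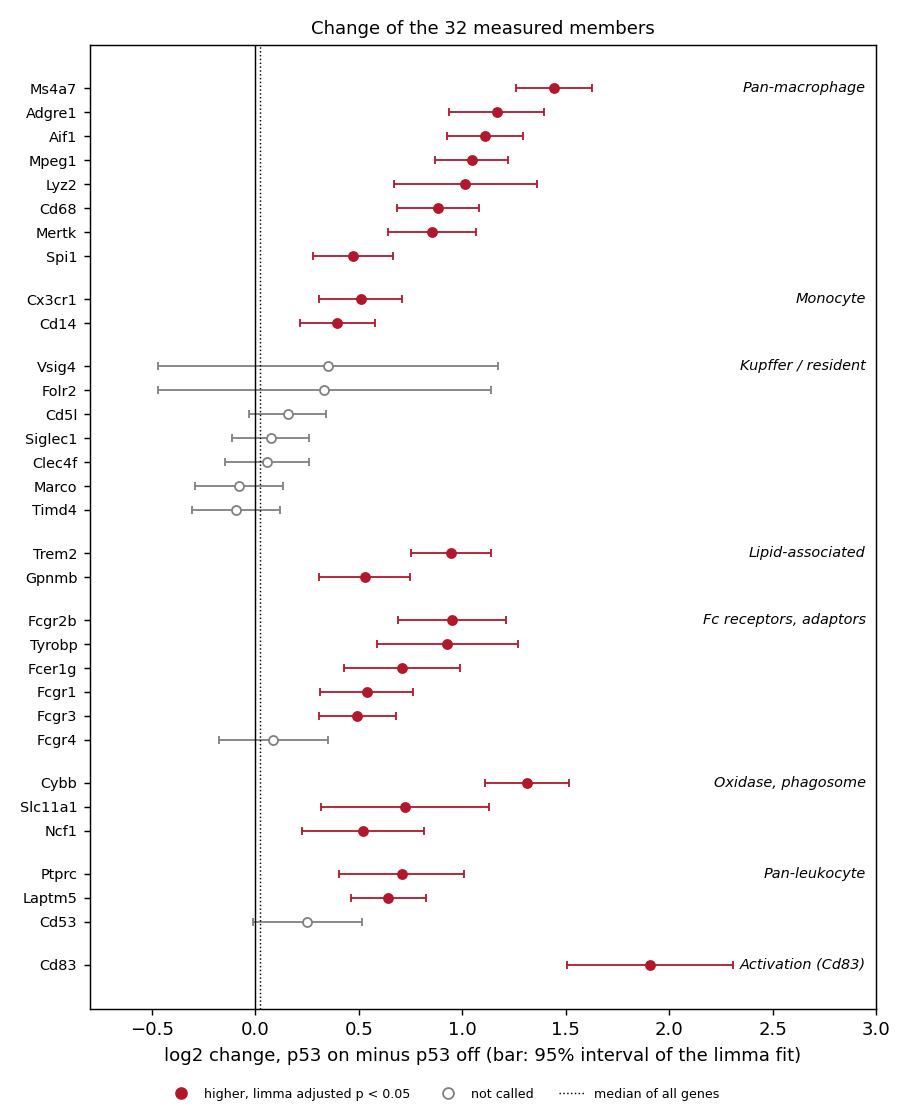
Log2 change, p53 on minus p53 off, of each of the 32 measured members, grouped by role; points are limma estimates and bars their 95% intervals, filled where the adjusted p was under 0.05, and the dotted line is the median of all genes. All 8 pan-macrophage genes lie right of 0, whereas the 7 Kupffer and resident genes have intervals that include 0.

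The pan-macrophage group held 8 measured genes, and all 8 rose, with a median change of 1.03. Ms4a7, a membrane protein of the MS4A family found on mature macrophages, read 11.60 and 11.60 in p53 on, against 10.19 and 10.12 in p53 off (log2 values). Its change of 1.44 ± 0.074 (SE, n = 2 against 2; 2.72-fold; limma adjusted p = 0.00048) was the largest of this group. Replicates agreed closely beside the gap between the groups, which did not overlap.

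Adgre1, which encodes F4/80, the antigen most used to stain mouse macrophages, stood at 10.60 and 10.42 in p53 on, against 9.37 and 9.32 in p53 off. The rise was 1.17 ± 0.092, or 2.24-fold (limma adjusted p = 0.00113). Aif1 encodes IBA1, an actin-bundling protein of macrophages and microglia. Its values were 11.01 and 10.97 in p53 on and 9.86 and 9.90 in p53 off, a rise of 1.11 ± 0.073 (2.16-fold). The only Aif1 probe set carries an _s_at suffix, for sequence shared between transcripts, so Aif1 was not measured in the fit without such probe sets.

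Mpeg1, whose product perforin-2 forms pores in engulfed bacteria, was nearly identical within each group, at 12.00 and 12.00 in p53 on and 10.96 and 10.95 in p53 off. Its rise was 1.04 ± 0.071, or 2.06-fold (limma adjusted p = 0.000791). Lyz2, the lysozyme gene of myeloid cells, was at 13.64 and 13.35 in p53 on and 12.35 and 12.61 in p53 off, so the lowest p53 on array was still above the highest p53 off array. The rise was 1.01 ± 0.14 (2.02-fold). Lyz2 is also abundant in neutrophils, whose own markers are given further on.

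Smaller rises were found for the remaining 3 genes. Cd68, a glycoprotein of late endosomes and lysosomes, had values of 10.08 and 10.19 in p53 on and 9.24 and 9.27 in p53 off (0.88 ± 0.079; 1.84-fold). Mertk, a receptor tyrosine kinase that binds apoptotic cells, read 9.61 and 9.45 in p53 on, against 8.66 and 8.70 in p53 off (0.85 ± 0.085). Spi1, which encodes PU.1, the transcription factor without which macrophages do not form, was at 9.25 and 9.34 in p53 on and at 8.86 and 8.80 in p53 off. Its change of 0.47 ± 0.077 (limma adjusted p = 0.00917) was the smallest of the 8, and the call was lost when p53 off replicate 2 was left out (adjusted p = 0.0766, over a range of 0.0045 to 0.0766 in the alternatives).

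**Figure D2:**
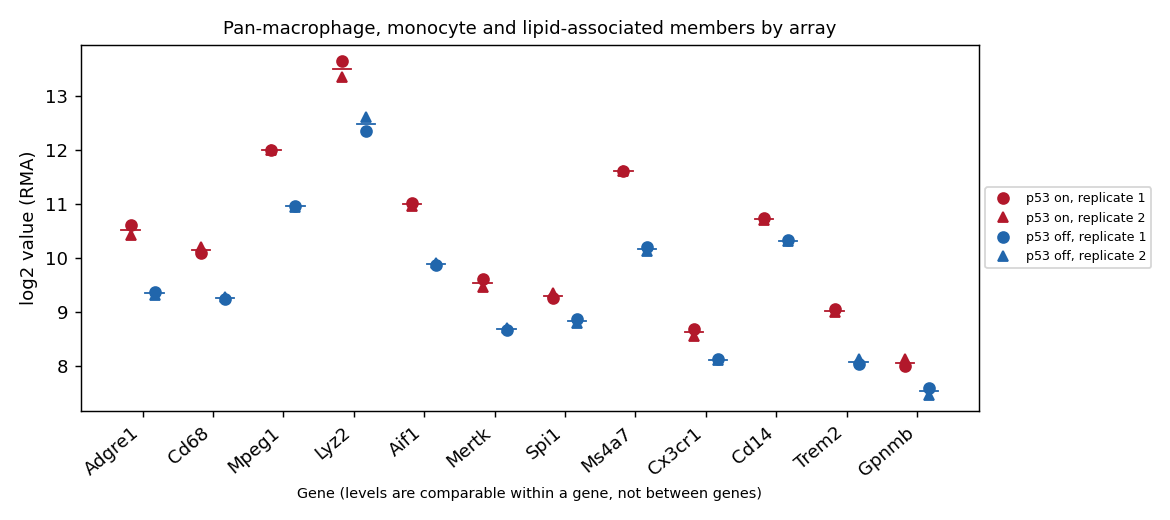
Log2 value on each of the 4 arrays for the pan-macrophage, monocyte and lipid-associated members; circles and triangles are replicates 1 and 2, short lines the group means (n = 2 each), p53 on left of p53 off. In each of these 12 genes both p53 on arrays lie above both p53 off arrays. The groups did not overlap, in either direction, in 66.7% of all genes.

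Of the Kupffer cell and resident macrophage genes, limma called 0 of 7, and 0 also passed an unadjusted p under 0.05. Whether their changes differ from those of the pan-macrophage genes was not tested. Their median change was 0.0736, but -0.154 without p53 on replicate 1 and 0.332 over the 3 genes left when the dimmest 40% of all genes were left out. Clec4f, a lectin receptor that in mouse liver is made by Kupffer cells, was at 6.86 and 6.99 in p53 on and at 6.86 and 6.89 in p53 off. The change was 0.06 with a 95% interval of -0.15 to 0.26, and the groups overlapped. Timd4, a phosphatidylserine receptor of long-lived resident macrophages, read 6.70 and 6.55 in p53 on and 6.73 and 6.72 in p53 off (-0.10, interval -0.31 to 0.12). Marco, a scavenger receptor, had 6.73 and 6.58 in p53 on and 6.75 and 6.72 in p53 off (-0.08), and its other probe set gave -0.07. Cd5l, a protein secreted by resident macrophages, was at 6.68 and 6.76 in p53 on and 6.56 and 6.56 in p53 off (0.16, interval -0.03 to 0.34). It passed the threshold only where arrays were scaled to spike-in controls (0.29; adjusted p = 0.0482, range 0.0482 to 0.523).

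These 4 genes were the only members among the 40% of genes with the lowest means. RMA, the method behind the deposited values, gives no detection call and compresses changes near background. A change in a transcript too scarce for these probe sets would not show. Siglec1, the sialic acid receptor CD169, was not among them and was not called either, at 8.26 and 8.31 in p53 on and 8.24 and 8.19 in p53 off (0.07, interval -0.11 to 0.26). Its 3 probe sets ran from 0.06 to 0.27, with none called.

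Vsig4 and Folr2 formed a separate pattern, high on 1 array alone. Vsig4, a complement receptor of the immunoglobulin superfamily, read 8.53 and 7.47 in p53 on, against 7.60 and 7.70 in p53 off. Folr2, the folate receptor of resident tissue macrophages, read 9.53 and 8.50 in p53 on, against 8.74 and 8.63 in p53 off. In both genes p53 on replicate 1 was above the other three arrays and p53 on replicate 2 below them. The changes, 0.35 (interval -0.47 to 1.17) and 0.33 (interval -0.47 to 1.14), were therefore not called. Without p53 on replicate 2 both were called (0.88 and 0.85; adjusted p = 0.00216 and 0.00251). Without p53 on replicate 1 they were at -0.18 and -0.18 (adjusted p = 0.263 and 0.255). Their ranges of adjusted p over all alternatives were 0.00216 to 0.698 and 0.00251 to 0.768.

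Vsig4 and Folr2 were the 2 members whose p53 on arrays lay at least 1 apart (1.06 and 1.03); over the other 30 the widest gap was 0.471. Of all genes, 68 were higher in p53 on replicate 1 than in replicate 2 by at least 1, and 18 the other way round. Myh4, Adipoq, Pvalb and Ckm, known from skeletal muscle or fat, were among the highest in that order, and so were Afp, a fetal liver gene, and Cyp2e1, a hepatocyte gene. These 6 were picked out after their values were seen. A muscle list chosen after these values were seen (10 genes) had a mean log2 level of 10.79 and 7.88 in p53 on and of 7.43 and 8.28 in p53 off. Myh4, a myosin of fast muscle fibres, read 10.53 and 5.36 in p53 on, against 5.03 and 6.66 in p53 off. For fat, 7 measured genes chosen in the same way averaged 8.96 and 6.80 in p53 on and 6.91 and 6.96 in p53 off, but only 3 of them (Adipoq, Car3 and Cd36) were at least 1 higher in p53 on replicate 1 than in replicate 2. Fabp4, a fatty acid carrier, was high on both p53 on arrays (12.10 and 11.18 in p53 on, 9.39 and 8.86 in p53 off). Adipoq, the hormone adiponectin of fat cells, was at 9.77 and 5.39 in p53 on and 5.79 and 5.44 in p53 off. The part of muscle or fat in the Vsig4 and Folr2 values was not tested. Without p53 on replicate 1 the median change of the members was 0.607, beside 0.0334 for all genes.

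**Figure D3:**
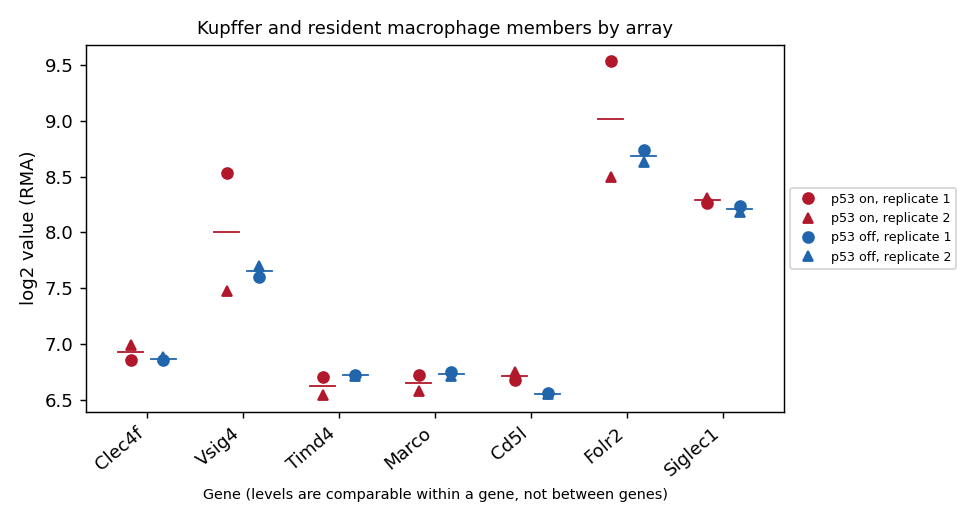
Log2 value on each array for the 7 Kupffer and resident macrophage members; symbols as for the other levels, with p53 on left of p53 off and short lines at the group means (n = 2 each). Vsig4 and Folr2 are high on p53 on replicate 1 alone (8.53 and 9.53), and the groups are close together in the other five genes.

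PU.1 binds a purine-rich core, GAGGAA, that is common in genes of this lineage. It was searched on both strands (the reverse reads TTCCTC) in RefSeq promoter windows of GRCm38.p6, from 250 bases before to 50 after each start, which 26 of the 32 measured members had. The core was found in 15 of these 26 (57.7%), against 31.3% of all 27025 genes with a window. Among members that rose 10 of 18 held it, and among those not called 5 of 8. In the pan-macrophage group 3 of 6 had it, and so did 3 of 6 in the Kupffer group. A match is a run of letters and not a shown binding site. The windows below were picked by name and do not mirror these counts. The core was in 55.6% of the windowed members that rose and in 62.5% of those not called. The windows of 3 members that rose and of Clec4f, which did not, are given 5′ to 3′ with the core in capitals: Ms4a7 at chr19:11336097-11336396, Cd68 at chr11:69666121-69666420, Cybb at chrX:9469275-9469574 and Clec4f at chr6:83656067-83656366, all on the minus strand.
Ms4a7: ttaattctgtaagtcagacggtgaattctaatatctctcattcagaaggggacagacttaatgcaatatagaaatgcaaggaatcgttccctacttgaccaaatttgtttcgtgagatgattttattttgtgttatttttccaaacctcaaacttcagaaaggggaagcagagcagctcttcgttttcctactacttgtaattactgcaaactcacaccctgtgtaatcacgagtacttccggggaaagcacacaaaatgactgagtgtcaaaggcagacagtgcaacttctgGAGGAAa
Cd68: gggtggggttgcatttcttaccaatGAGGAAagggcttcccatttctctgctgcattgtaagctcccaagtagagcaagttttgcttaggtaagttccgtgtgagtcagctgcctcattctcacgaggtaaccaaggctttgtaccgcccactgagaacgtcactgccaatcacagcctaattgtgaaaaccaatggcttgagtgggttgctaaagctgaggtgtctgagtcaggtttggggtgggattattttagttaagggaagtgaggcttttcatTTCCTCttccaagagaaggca
Cybb: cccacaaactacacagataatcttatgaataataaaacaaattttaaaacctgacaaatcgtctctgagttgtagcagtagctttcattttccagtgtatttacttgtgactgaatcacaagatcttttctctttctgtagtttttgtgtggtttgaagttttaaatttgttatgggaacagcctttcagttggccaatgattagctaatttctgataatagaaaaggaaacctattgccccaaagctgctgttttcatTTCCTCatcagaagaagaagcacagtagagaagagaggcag
Clec4f: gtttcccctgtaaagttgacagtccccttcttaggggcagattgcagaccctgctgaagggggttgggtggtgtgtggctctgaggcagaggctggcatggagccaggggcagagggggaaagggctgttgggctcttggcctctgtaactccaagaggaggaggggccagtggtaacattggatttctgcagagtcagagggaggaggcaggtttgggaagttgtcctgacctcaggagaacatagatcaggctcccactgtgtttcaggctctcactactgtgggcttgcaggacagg
Cd68 has 2 matches, 1 of them before the start. The single matches of Ms4a7 and Cybb lie after it, and the Clec4f window has none.

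Monocyte genes rose too, but with Ly6c2 not measured only 2 remained (median change 0.452). Cx3cr1, the fractalkine receptor of patrolling monocytes and of some tissue macrophages, was at 8.68 and 8.56 in p53 on and at 8.11 and 8.11 in p53 off. The rise was 0.51 ± 0.080 (1.42-fold; limma adjusted p = 0.00802). A second, dimmer probe set changed by 0.19 and was not called. Cd14, the co-receptor for bacterial lipopolysaccharide, read 10.74 and 10.70 in p53 on and 10.34 and 10.30 in p53 off, a rise of 0.40 ± 0.072 (1.32-fold; limma adjusted p = 0.0127). Without p53 off replicate 2 neither passed (adjusted p = 0.0634 for Cx3cr1 and 0.0968 for Cd14), and without p53 off replicate 1 Cd14 did not either (0.0653). The adjusted p ran from 0.00278 to 0.0634 for Cx3cr1 and from 0.00521 to 0.0968 for Cd14. Neither gene is restricted to monocytes.

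Lipid-associated genes, Trem2 and Gpnmb, both rose, each on 1 of its 2 probe sets. The dimmer Gpnmb probe set changed by 0.25 and was not called (limma adjusted p = 0.0805 over all probe sets). Trem2, a lipid-sensing receptor that signals through Tyrobp, was at 9.04 and 8.99 in p53 on and at 8.03 and 8.11 in p53 off (0.94 ± 0.077; 1.92-fold; limma adjusted p = 0.00121). That value comes from a probe set whose suffix marks sequence shared between transcripts. The other Trem2 probe set read 7.59 and 7.61 in p53 on and 7.69 and 7.67 in p53 off, a change of -0.07 (adjusted p = 0.508 over all probe sets), so the rise rests on 1 of 2. Gpnmb, a glycoprotein of lysosome-rich macrophages also made by pigment cells and some tumor cells, was at 7.99 and 8.11 in p53 on and at 7.58 and 7.46 in p53 off. It rose by 0.53 ± 0.088 (limma adjusted p = 0.00971), and was at an adjusted p = 0.0764 without p53 off replicate 2 (range 0.00484 to 0.0764).

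Fc receptors bind the constant part of antibodies and let macrophages engulf coated targets. Of 6 genes for receptors and their signalling adaptors, 5 rose and 1 was not called, with a median change of 0.623. Fcgr2b, the inhibitory receptor, was at 12.61 and 12.84 in p53 on and at 11.83 and 11.72 in p53 off. Its rise of 0.95 ± 0.10 (1.93-fold; limma adjusted p = 0.00267) was shared by 4 of its 5 probe sets (0.85 to 0.95), the dim one being at 0.16. Fcgr2b is also strongly made by liver sinusoidal endothelium and by B cells. Of 8 endothelial genes 5 rose (Tek 1.40, Emcn 0.93, Pecam1 0.71, Cdh5 0.71 and Kdr 0.64) and 1 fell (Lyve1, -0.69 ± 0.14), and Stab2 and Clec4g were not called (0.31 and 0.01). Lyve1, Stab2 and Clec4g are known from sinusoidal endothelium and were picked out after their values were seen. The part of endothelial cells in the Fcgr2b value was not tested.

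The activating receptors did not move alike. Fcgr1, which binds single antibody molecules with high affinity, read 10.08 and 10.25 in p53 on and 9.66 and 9.60 in p53 off (0.54 ± 0.089; limma adjusted p = 0.00941). Fcgr3, a low-affinity receptor also made by NK cells and neutrophils, read 12.45 and 12.47 in p53 on and 12.00 and 11.93 in p53 off (0.49 ± 0.074; limma adjusted p = 0.0071). Both calls were lost without p53 off replicate 2 (adjusted p = 0.074 and 0.064; ranges 0.00452 to 0.074 and 0.00341 to 0.064). Fcgr4, a receptor known from neutrophils and patrolling monocytes, had 9.99 and 10.23 in p53 on and 10.07 and 9.98 in p53 off. The groups overlapped, and the change was 0.09 with an interval of -0.17 to 0.35.

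Adaptors carry the signalling motif that these receptors lack. Fcer1g, the common gamma chain of activating Fc receptors, was at 12.31 and 12.42 in p53 on and at 11.78 and 11.52 in p53 off (0.71 ± 0.11; 1.64-fold). Tyrobp, which encodes DAP12, the partner of Trem2, was at 12.12 and 12.21 in p53 on and at 11.42 and 11.05 in p53 off (0.93 ± 0.14; 1.90-fold; limma adjusted p = 0.00642). The p53 off arrays of Tyrobp differed by more than the p53 on arrays did, but both were lower. Among 9 measured genes of the kinases, phosphatases and linkers that act downstream of such receptors, 7 rose and 0 fell (8 and 0 at an unadjusted p under 0.05; median 0.46). The adaptor Lcp2 (SLP-76) rose by 1.30 ± 0.095, the inositol phosphatase Inpp5d (SHIP1) by 0.94 ± 0.073 and the kinase Fgr by 0.61 ± 0.16.

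All 3 genes of the oxidase and phagosome group rose. Cybb, the catalytic subunit of the phagocyte NADPH oxidase, was at 10.53 and 10.42 in p53 on and at 9.19 and 9.13 in p53 off. The rise was 1.31 ± 0.081 (2.49-fold; limma adjusted p = 0.000665), and its 3 probe sets gave 1.18 to 1.31. Ncf1, the cytosolic organiser subunit p47phox, read 10.25 and 9.98 in p53 on and 9.52 and 9.67 in p53 off. It rose by 0.52 ± 0.12 (limma adjusted p = 0.0253). Of its 3 probe sets 2 were called, over a range of changes from 0.25 to 0.52. The Ncf1 call was lost with a replicate block (adjusted p = 0.0582) and without either p53 off array (0.125 and 0.0804; range 0.00624 to 0.125). Slc11a1, a metal transporter of the phagosome membrane, had 8.62 and 8.61 in p53 on and 8.13 and 7.65 in p53 off (0.72 ± 0.16; limma adjusted p = 0.0244). Its change was 0.48 without p53 off replicate 2 (adjusted p = 0.0557, range 0.0105 to 0.0557). Of 3 other measured oxidase subunits, Rac2 (0.58 ± 0.087) and Ncf4 (0.53 ± 0.080) rose, and Cyba was not called (0.07).

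Of 3 genes made by all white blood cells, 2 rose and 1 was not called (median change 0.641). Ptprc, the phosphatase CD45, was at 11.94 and 11.63 in p53 on and at 11.05 and 11.11 in p53 off (0.71 ± 0.12; 1.63-fold; limma adjusted p = 0.0101). Its second probe set was at -0.05 and not called, and the call was lost without either p53 off array (adjusted p = 0.0594 and 0.0598; range 0.00201 to 0.0598). Laptm5, a lysosomal membrane protein of blood cells, was at 11.86 and 11.83 in p53 on and at 11.23 and 11.18 in p53 off (0.64 ± 0.072; limma adjusted p = 0.00289). Of its 5 probe sets 3 were called, over a range of changes from 0.01 to 0.92. The one used carries an _x_at suffix, for probes that can cross-hybridize, and with the brightest probe set without an _x_at or _s_at suffix Laptm5 was at 0.01 and not called (adjusted p = 0.929, range 0.00129 to 0.929). Cd53, a tetraspanin, was at 12.63 and 12.75 in p53 on and 12.56 and 12.33 in p53 off, a change of 0.25 (interval -0.01 to 0.52) that did not pass. With arrays scaled to spike-in controls Cd53 was called (0.38; adjusted p = 0.0497, range 0.0497 to 0.542).

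**Figure D4:**
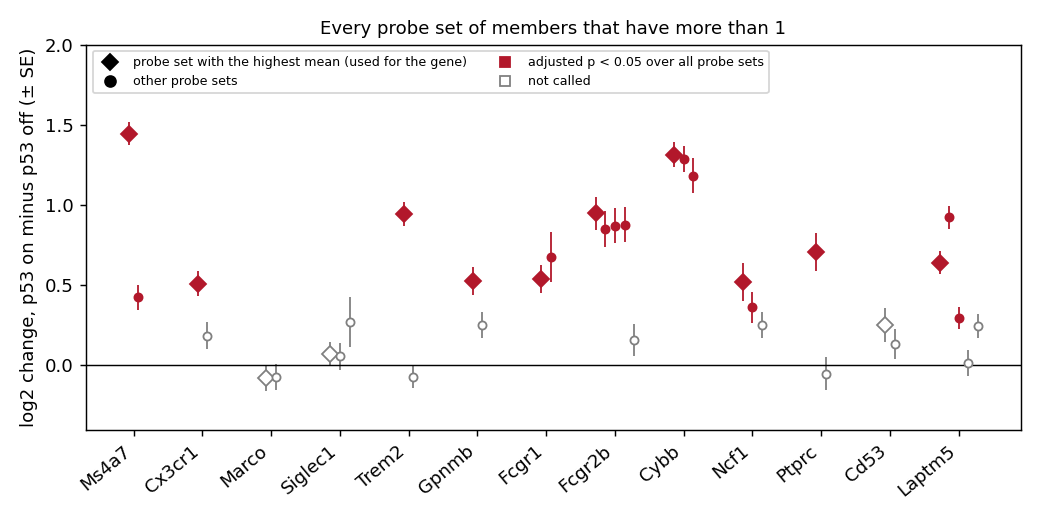
Log2 change, p53 on minus p53 off, of every probe set of the 13 members that have more than 1; bars are SE, diamonds mark the probe set used for the gene, and filled symbols passed an adjusted p of 0.05 over all probe sets. The probe sets of Cybb lie together (1.18 to 1.31), whereas those of Trem2 (-0.07 and 0.94) and of Laptm5 (0.01 to 0.92) lie apart.

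The largest rise of any member was that of Cd83, a surface protein of activated dendritic cells, macrophages and B cells. It was at 9.29 and 8.81 in p53 on and at 7.11 and 7.17 in p53 off, a change of 1.91 ± 0.16 (3.75-fold; limma adjusted p = 0.00129). Of dendritic cell markers, 3 of 6 measured genes rose, and the mean log2 level of the 6 was 7.91 and 7.86 in p53 on and 7.18 and 7.20 in p53 off. Zbtb46, a transcription factor of conventional dendritic cells and also of endothelium, rose by 2.75 ± 0.088, and Cd209a, a lectin of monocyte-derived dendritic cells, by 0.82 ± 0.089. The third was Flt3, a growth factor receptor of dendritic cell precursors (0.32 ± 0.081). Xcr1 (0.17), Ccr7 (0.11) and Siglech (-0.01) were not called, and the list mean leans on Zbtb46, which had by far the widest gap. Flt3 and the uncalled genes were picked out after their values were seen. The part of dendritic cells in the Cd83 value was not tested.

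Counted by probe set, 33 of the 54 rose and 0 fell in the fit of all 45037 probe sets, beside 11.3% and 11.5% of all probe sets. Among the 13 members with several probe sets, Ms4a7, Fcgr1 and Cybb had all of theirs called higher.

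Macrophage genes outside the 34 gave a similar picture. Of 12 measured, 8 rose and 0 fell, with the same counts at an unadjusted p under 0.05 and a median change of 0.628. Csf1r, the receptor for the growth factor on which macrophages depend, read 13.30 and 13.08 in p53 on and 11.96 and 12.10 in p53 off (1.16 ± 0.10; limma adjusted p = 0.00157). The complement gene C1qb rose by 0.94 ± 0.13 and Ms4a6c by 0.88 ± 0.082. Itgam (CD11b) was not called (-0.17, interval -0.41 to 0.06), nor were Cd163 (0.35), Mrc1 (0.17) and Msr1 (-0.22). The means of Mrc1 and Msr1 rank at percentiles 95.6 and 82.5 of all genes. These uncalled genes were picked out after their values were seen.

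For monocytes, 4 of 10 other genes rose and 0 fell (5 and 0 at an unadjusted p under 0.05; median 0.402). Ccr2, the chemokine receptor that brings inflammatory monocytes into tissue, was at 8.70 and 9.26 in p53 on and at 7.95 and 7.82 in p53 off (1.10 ± 0.19; limma adjusted p = 0.0102). Itgal, the integrin chain CD11a, rose by 0.60 ± 0.16 and Treml4, a receptor of patrolling monocytes, by 0.46 ± 0.075. Itgal is also made by lymphocytes, and the Treml4 mean ranks at percentile 8.56 of all genes, near background. The 6 genes not called ran from -0.18 (Nr4a1) to 0.90 (F13a1). Among them was Plac8 (0.13), whose mean ranks at percentile 99.1. Nr4a1, F13a1 and Plac8 were picked out after their values were seen.

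Of 9 further genes linked to Kupffer cells 4 rose and 0 fell (5 and 0 at an unadjusted p under 0.05; median 0.294). Nr1h3, the oxysterol receptor LXR-alpha that maintains Kupffer cell identity, rose by 1.18 ± 0.072. The iron exporter Slc40a1 rose by 1.04 ± 0.13 and the transcription regulator Id3 by 0.68 ± 0.072. The fourth was C6, a complement component (0.52 ± 0.13). These genes are also made outside Kupffer cells. Clec1b, a lectin receptor of Kupffer cells, platelets and other cells, was at 5.90 and 5.97 in p53 on and 5.88 and 5.85 in p53 off (0.07, interval -0.12 to 0.25). Its mean ranks at percentile 10.9 of all genes, near background, where a change may not show, and Clec1b and C6 were picked out after their values were seen.

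Of 12 other lipid-associated genes 6 rose and 2 fell (median 0.428). Lpl, lipoprotein lipase, was at 11.71 and 10.98 in p53 on and at 9.76 and 9.16 in p53 off (1.88 ± 0.29; limma adjusted p = 0.0078). Apoe, an apolipoprotein, rose by 1.08 ± 0.10 and the cholesterol exporter Abca1 by 0.82 ± 0.13. The lipid droplet gene Plin2 and the tetraspanin gene Cd9 fell (-0.34 ± 0.077 and -0.29 ± 0.072). Most of these genes are made by tumor, fat or stromal cells as well.

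Among 9 measured growth factors and transcription factors of the lineage 6 rose and 0 fell (6 and 1 at an unadjusted p under 0.05; median 0.447). Irf8, which directs monocyte and dendritic cell development, was at 10.71 and 10.75 in p53 on and at 9.25 and 9.23 in p53 off (1.49 ± 0.072; limma adjusted p = 0.000452). Maf rose by 1.31 ± 0.19 and Zeb2 by 0.90 ± 0.11.

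**Figure D5:**
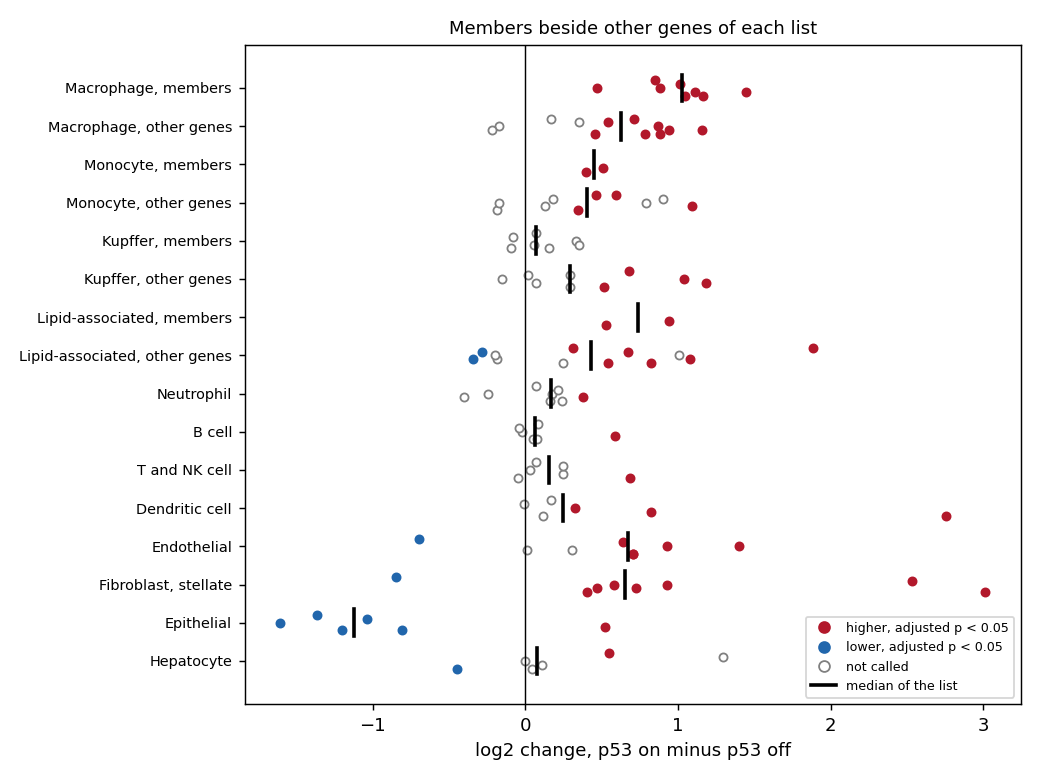
Log2 change, p53 on minus p53 off, of each measured gene in the member groups, in other genes of the same kind and in lists for other cell types; points are genes, filled red or blue where limma called them higher or lower, and black bars are list medians. The median is 1.03 for pan-macrophage members and 0.0736 for Kupffer members, and the medians of the neutrophil, B cell and T and NK cell lists are 0.171, 0.0647 and 0.157. Several genes of the Kupffer, B cell and T and NK cell lists lie near background, where a change may not show.

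Lists for other white blood cells are read beside the 14% of all genes that were called higher. Of 8 neutrophil genes 1 rose (Csf3r, 0.38 ± 0.081) and 0 fell (3 and 0 at an unadjusted p under 0.05), and the mean log2 level was 7.69 and 7.45 in p53 on and 7.66 and 7.33 in p53 off. B cell genes gave 1 rise of 6, Cd22 at 0.59 ± 0.074, while Cd79a, Cd79b and Ms4a1 were not called. Their mean was 7.29 and 7.28 in p53 on and 7.19 and 7.13 in p53 off. For T and NK cells 1 of 6 rose (Ncr1, 0.69 ± 0.12), at means of 7.22 and 7.27 in p53 on and 7.07 and 7.01 in p53 off. No gene of these lists is at 0, since RMA values have a floor above it.

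Lists for cells outside the blood gave calls in both directions. Endothelial genes rose in 5 of 8 and fell in 1 (Tek 1.40 ± 0.19, Emcn 0.93 ± 0.074; list means 9.11 and 9.42 in p53 on, 8.79 and 8.74 in p53 off). Fibroblast and stellate cell genes rose in 7 of 8 and fell in 1 (Lum 3.01 ± 0.15, Dcn 2.53 ± 0.26; means 12.55 and 12.50 in p53 on, 11.71 and 11.39 in p53 off). Epithelial genes fell in 5 of 6 and rose in 1 (Krt18 -1.61 ± 0.10, Krt8 -1.36 ± 0.10). The epithelial means were 11.07 and 11.07 in p53 on and 11.90 and 12.07 in p53 off, and which cells made these keratins was not tested. Hepatocyte genes gave 1 rise and 1 fall of 6 (Serpina1c 0.55 ± 0.145, Ahsg -0.45 ± 0.12; means 7.77 and 7.29 in p53 on, 7.27 and 7.27 in p53 off). The fibroblast and stellate cell gene that fell was Lrat (-0.85 ± 0.21), and the epithelial gene that rose was Epcam (0.52 ± 0.072). The hepatocyte mean of p53 on replicate 1 leans on Cyp2e1, which was not called. Cyp2e1 read 9.71 and 7.39 in p53 on and 7.27 and 7.24 in p53 off. Lrat, Epcam and Cyp2e1 were picked out after their values were seen. The part of the epithelial and stromal changes in the members' rise was not tested. Actin control probe sets, whose 3′ minus 5′ log2 difference grows as RNA breaks down, gave 0.478 and 0.492 in p53 on and 0.395 and 0.262 in p53 off, and the part of RNA quality was not tested either.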

How the data were processed

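RNA from mouse liver tumors was hybridized to 4 Affymetrix whole-genome arrays. The deposited table holds log2 values made by the authors with RMA (background correction, quantile normalization, summarisation per probe set); the submitters' processing notes name RMA and limma 3.14.4, without settings. Of 45101 probe sets, 64 controls were set aside, and the platform annotation gave 34945 exactly 1 symbol, 932 several and 9160 none. RefSeq (GRCm38.p6) supplied names and promoters. Each gene took its probe set with the highest mean, which gave 18193 genes with no filter.

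Genes and, separately, probe sets were fitted with lmFit and eBayes (limma 3.58.1, R 4.3.3) as p53 on minus p53 off, with 2 residual and 5.47 moderated degrees of freedom. Adjusted p is Benjamini-Hochberg over all features. SE is the moderated one. An exact permutation test of 2 against 2 arrays cannot reach 0.05, so none was run. The number of arrays limits precision. The fit was tested on simulated data.

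Members and lists were chosen with earlier results of these data known. Named were all members, up to 3 called genes of each related list and up to 2 of each other cell type list. Plin2, Cd9, Lyve1, Stab2, Clec4g, Cd79a, Cd79b, Ms4a1, Itgam, Cd163, Mrc1, Msr1, Nr4a1, F13a1, Plac8, Clec1b, C6, Flt3, Xcr1, Ccr7, Siglech, Pecam1, Cdh5, Kdr, Cyba, Lrat, Epcam, Myh4, Adipoq, Pvalb, Ckm, Car3, Cd36, Fabp4, Afp and Cyp2e1 were added after their values were seen. Alternatives were a replicate block, quantile normalization, centring on the median, scaling to spike-in controls, leaving out the lowest 40% of genes, the mean of all probe sets, the brightest probe set without an _x_at or _s_at suffix, trend and robust eBayes, a size threshold of 1, and leaving out each array; an arm left with 1 array then borrowed its spread from the other arm. Levels of the silenced gene and of the oncogene that drives the tumors are not analysed here. The titles share replicate numbers, but nothing says that these mark a common animal or day.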

Additional observations from a re-analysis of the deposited data

How the results depend on the processing

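In 13 alternatives, and with crossed numbers, 0 members were called lower. The number called higher was 23 and ran from 14 to 25 over the fits that leave out 1 array (14 without p53 off replicate 2, beside 6.01% of all genes) and from 20 to 25 over the other fits, and 7 were also changed by at least 1. With the size threshold set aside, 12 of the 23 called members kept direction and call in every alternative that measured them. Another 10 lost the call in at least 1. Of the 9 not called, 4 were called in at least 1 (Vsig4, Folr2, Cd5l and Cd53). Trem2 reversed to -0.074 (adjusted p = 0.506) with the brightest probe set without an _x_at or _s_at suffix, where Laptm5 was at 0.01. With a replicate block 22 were called, beside 11.1% of all genes, and Ncf1 was lost (limma adjusted p = 0.0582). With the numbers crossed the count was also 22, beside 10.9% of all genes. The crossed fit was added after seeing the data because same-numbered arrays deviated with r = -0.154. Without _x_at or _s_at probe sets 20 were called, beside 13.7% of all genes, and with spike-in scaling 25, beside 24.3%. The cause of these shifts was not tested.

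Medians moved as follows. With spike-in scaling, which shifted the median of all genes to 0.154, they were 0.72 (all members), 1.16 (pan-macrophage), 0.583 (monocyte), 0.205 (Kupffer), 0.867 (lipid-associated) and 0.772 (pan-leukocyte). Centring gave 0.378 for monocyte and 0.661 for lipid-associated genes, and put the Kupffer median at -0.0013. Quantile normalization gave 0.69 (lipid-associated) and 0.729 (pan-leukocyte). Without the dimmest 40% of genes the medians were 0.708 (28 members) and 0.332 (3 Kupffer genes). With the mean of all probe sets they were 0.453 (all), 0.372 (monocyte), 0.413 (lipid-associated) and 0.327 (pan-leukocyte), and without _x_at or _s_at probe sets 0.227 (lipid-associated) and 0.251 (pan-leukocyte). Leaving out 1 array gave 0.542 to 0.693 for all members, -0.154 (without p53 on replicate 1) to 0.0997 for Kupffer, 0.549 to 0.663 for pan-leukocyte and 0.596 to 0.966 for oxidase genes. Values near background limit what can be said of the dim Kupffer genes.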
